A study of Mus musculus with 9 samples.

Results

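The baseline described here is the amygdala of 3 balancing (BA) mice, read from 3 of the 9 libraries of the series and from all 11820 genes listed in the table that holds the BA and the approaching (AP) mice. The 3 libraries were chosen by their phenotype label, and values of the AP and avoiding (AV) mice are not described. The authors normalised and filtered the table over the BA and AP mice together, so the AP mice bear on the scale of the BA values and on which genes have a row. Every mouse carried the same transgene, B6.Cg-Tg(Thy1-YFP)HJrs/J, in which the Thy1 promoter drives a yellow fluorescent protein in pyramidal neurons of the amygdala, hippocampus and cortical layer 5 and, more weakly, in some other neurons. BA mice had answered a conflict between approach and avoidance with balanced behaviour, were sacrificed 1 month after that task, and no treatment is named for them. Age and sex are not given in the labels. Amygdala punches of single mice were dissociated, and live fluorescent cells labelled pyramidal neurons were sorted from each, so that 1 library stands for 1 mouse (BA1, BA2, BA3).

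Pyramidal neurons of the basolateral amygdala are glutamatergic projection cells. They load vesicles with the transporter encoded by Slc17a7, fire through voltage-gated sodium and potassium channels, receive input on AMPA and NMDA receptors held in a postsynaptic density rich in the kinase CaMKII (Camk2a), and carry a set of transcription factors shared with cortical excitatory neurons. The tissue around them holds oligodendrocytes, which wrap axons in myelin, astrocytes, which clear glutamate and form glutamine, and microglia, the resident macrophages that depend on the receptor Csf1r.

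The values are a normalised signal without a physical unit. The lowest value of each mouse was 2, and 84.4% of the low values of BA1, 82.3% of those of BA2 and 85.2% of those of BA3 lay on whole steps above it, within 0.01 of a step. A step was taken as 1 read, which the spacing of the values does not prove, and on that assumption the signal of BA1, BA2 and BA3 stood on about 4.28e+06, 4.93e+06 and 3.82e+06 reads. The methods of the study name several times more sequenced reads per library, and how these relate to the steps was not tested. On the same assumption, a gene at or under the value of 3 reads above the lowest one (between 5.07 and 5.68) cannot be told from a gene without reads, which held for 85 to 127 genes per mouse. To compare genes, the lowest value of the mouse was subtracted and the rest divided by the gene's summed exon length. This level per kb had a median of 30.3 over all genes. No test was run. A two-sided exact sign test over 3 mice cannot go below 0.25, and errors below are SDs over the 3 mice (n = 3).

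The labelled cell type and the leading genes did not match. Camk2a, the defining kinase of forebrain excitatory neurons (ENSMUSG00000024617.16, GRCm38 chr18:60925618-60988152), had values of 64.9, 98.3 and 69.4 in BA1, BA2 and BA3, a mean level of 10.1 ± 2.43 per kb and rank 9583 by level per kb. Slc1a2, the main glutamate transporter of astrocytes (ENSMUSG00000005089.15, chr2:102658659-102790784), had values of 8318, 7658 and 11549, a mean level of 698 ± 159 per kb and rank 120. Csf1r (ENSMUSG00000024621.16, chr18:61100598-61132149) had values of 592, 518 and 1078, a mean level of 126 ± 52.7 per kb and rank 1353. In every mouse the order of the 3 genes was the same, Slc1a2 above Csf1r above Camk2a, with no overlap between the ranges of their values. Thy1 itself, whose promoter marks the sorted cells, has no row in the tables analysed here. Fewer cells of a type and less RNA per cell cannot be told apart in such bulk libraries.

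Genes of myelin and of the cytoskeleton led the libraries. Among the 10 highest genes by value were Qk, Scd2, Mbp, Mobp, Fth1, Dst, Kif1b, Tubb4a and Nfasc. Qk, an RNA-binding protein that oligodendrocytes need to form myelin, had a mean value of 40289 ± 7391. Scd2, a fatty acid desaturase, had 38826 ± 8512, and Mbp, myelin basic protein, had 35930 ± 8711. Mobp is a further myelin protein, Fth1 stores iron, Dst links parts of the cytoskeleton, Kif1b is a kinesin motor, Tubb4a is a tubulin and Nfasc builds axon and glial contacts. The mean values of these 6 lay between 15443 for Nfasc and 17580 for Mobp.

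Per kb, leading genes outside the mitochondrial genome were Scd2 (7105 per kb), Tubb4a (6973), Cldn11 (5571), Mal (5361), Fth1 (5050), Mbp (4242), Trf (4194), Actb (4004) and Glul (3100). Cldn11 is the tight junction protein of myelin, Mal a lipid raft protein of myelin, Trf transferrin, Actb beta-actin and Glul glutamine synthetase. Trf shares 2108 exon bases with the gene model Gm20425 on the same strand, so its level is uncertain. The 100 highest genes held 21.1% of the signal in BA1, 23.5% in BA2 and 21.4% in BA3 (22.0% ± 1.34), and 820, 694 and 795 genes held 50% of it. Of the 100 genes highest per kb in each mouse, 77 were shared by all 3 mice. By type, 11455 of the 11820 genes are annotated as protein-coding and carried 98.8% of the signal, and 192 are processed pseudogenes, whose reads can come from their parent genes.

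**Figure D1:**
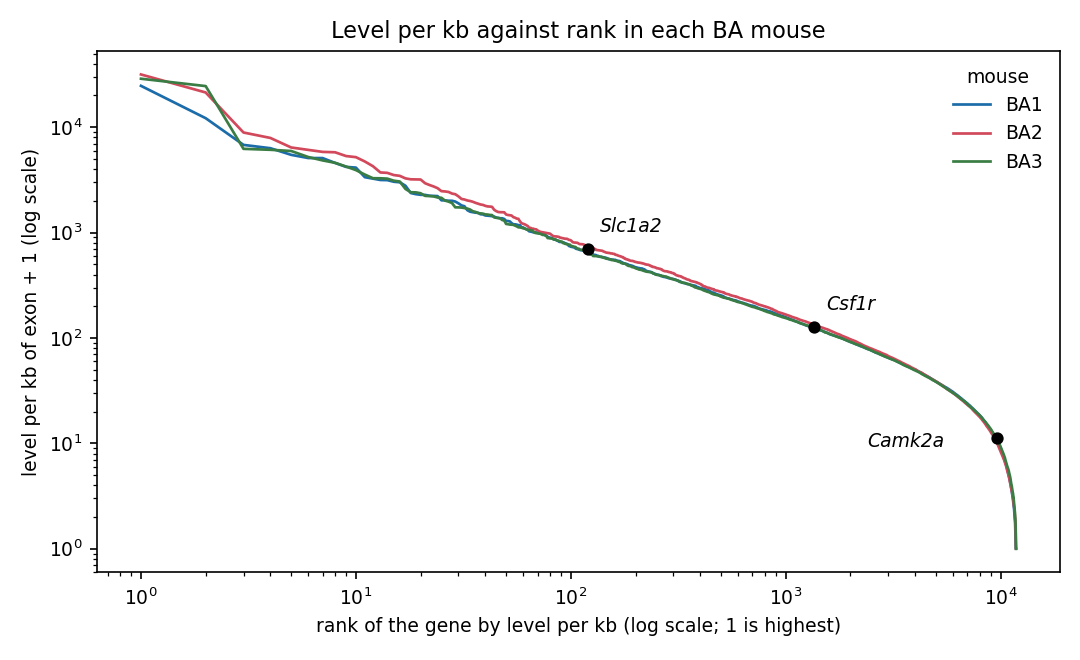
Level per kb of exon plus 1 (y axis, log scale) against the rank of each gene within its mouse (x axis, log scale), 1 line per BA mouse, with black points for 3 genes at their mean level and rank over the 3 mice. The 3 lines nearly coincide, and Slc1a2 (rank 120), Csf1r (rank 1353) and Camk2a (rank 9583) lie far apart on them.

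Lists of marker genes were set side by side by the number of members with a row and by the level per kb of those with one. Of 39 markers on the 3 neuronal lists 13 had a row (33.3%), and of 46 markers on the 4 glial lists 44 had one (95.7%). Over the whole annotation, 52.0% of the protein-coding genes had a row.

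Oligodendrocyte markers led. All 12 had a row, all 12 lay in the highest 10% of genes per kb, and their median level was 1916 per kb. Cldn11 and Mbp were among the highest of them, and Olig2, a transcription factor of the lineage, varied most between mice with values of 834, 1323 and 696. Summed over the list, these 12 genes held 5.19%, 6.03% and 5.26% of the signal of BA1, BA2 and BA3. Of 5 markers of oligodendrocyte precursors 4 had a row, with a median level of 39.5 per kb. Gpr17, a receptor of cells about to form myelin, was the highest at 207 ± 112 per kb, with values of 917, 1724 and 589, and Vcan and Pdgfra followed at 40.01 and 38.95 per kb. Neu4 has no row in the table analysed here.

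All 14 astrocyte markers had a row, with a median level of 151 per kb, and 13 of them lay above the median of all genes. Glul was the highest, with values of 11148, 12355 and 7408, followed by Slc1a2. Gfap, the intermediate filament of reactive astrocytes, was the lowest of the list at 25.0 per kb and varied most, with values of 153, 123 and 46.1. Of 15 microglial markers 14 had a row, all but Tyrobp, at a median of 63.0 per kb. Among the highest were Ctss, a lysosomal protease, at 140 ± 60.2 per kb and Csf1r at 126 ± 52.7. Trem2 varied most, with values of 37.2, 12.2 and 43.7, and stayed above the level of 3 reads in each mouse.

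Neuronal markers with a row were few, and they ranged widely. Of 15 pan-neuronal genes, Elavl3, Tubb3, Map2, Eno2 and Elavl4 had a row. Elavl3, an RNA-binding protein of neurons, was the highest at 250 ± 49.8 per kb, with values of 1480, 2119 and 1583, and shares 256 exon bases with the gene model Gm49318. Tubb3, neuronal tubulin, varied most, with values of 108, 215 and 74.3 and a mean of 69.8 per kb, and Map2, the dendritic microtubule protein, had 69.5 per kb. The neuronal enolase Eno2 (8.48 per kb) and Elavl4 (3.37 per kb) lay below the median of all genes. Rbfox3, Snap25, Syt1, Stmn2, Nefl, Nefm, Uchl1, Syp and Gap43 have no row in the table analysed here, like Thy1. They encode the neuronal nuclear protein NeuN, synaptic vesicle and fusion proteins, neurofilaments and growth proteins.

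Among 12 glutamatergic markers, 4 had a row and all 4 lay below the median of all genes. Nrgn, a calmodulin-binding protein of dendrites, had values of 14.8, 20.5 and 16.7, and Arpp21, a phosphoprotein of forebrain neurons, 109, 122 and 67.0. Slc30a3, the vesicular zinc transporter, was listed at 2, the lowest value, in every mouse. The vesicular glutamate transporters Slc17a7 and Slc17a6 and the transcription factors Neurod6, Neurod2, Neurod1, Tbr1 and Emx1 were among those that have no row. Of 12 GABAergic markers 4 had a row. Gad2, which makes GABA, had values of 63.1, 34.8 and 17.96. Calb2 had values of 2, 14.3 and 3.23, of which those of BA1 and BA3 lay under 3 reads. The lists without a neural identity were low or thin. Of 13 endothelial and pericyte markers 8 had a row (median 17.8 per kb), of 4 ependymal markers only Foxj1 (31.9 per kb), of 9 markers of other immune cells Mrc1 and Lyz2, and of 5 red blood cell markers none.

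**Figure D2:**
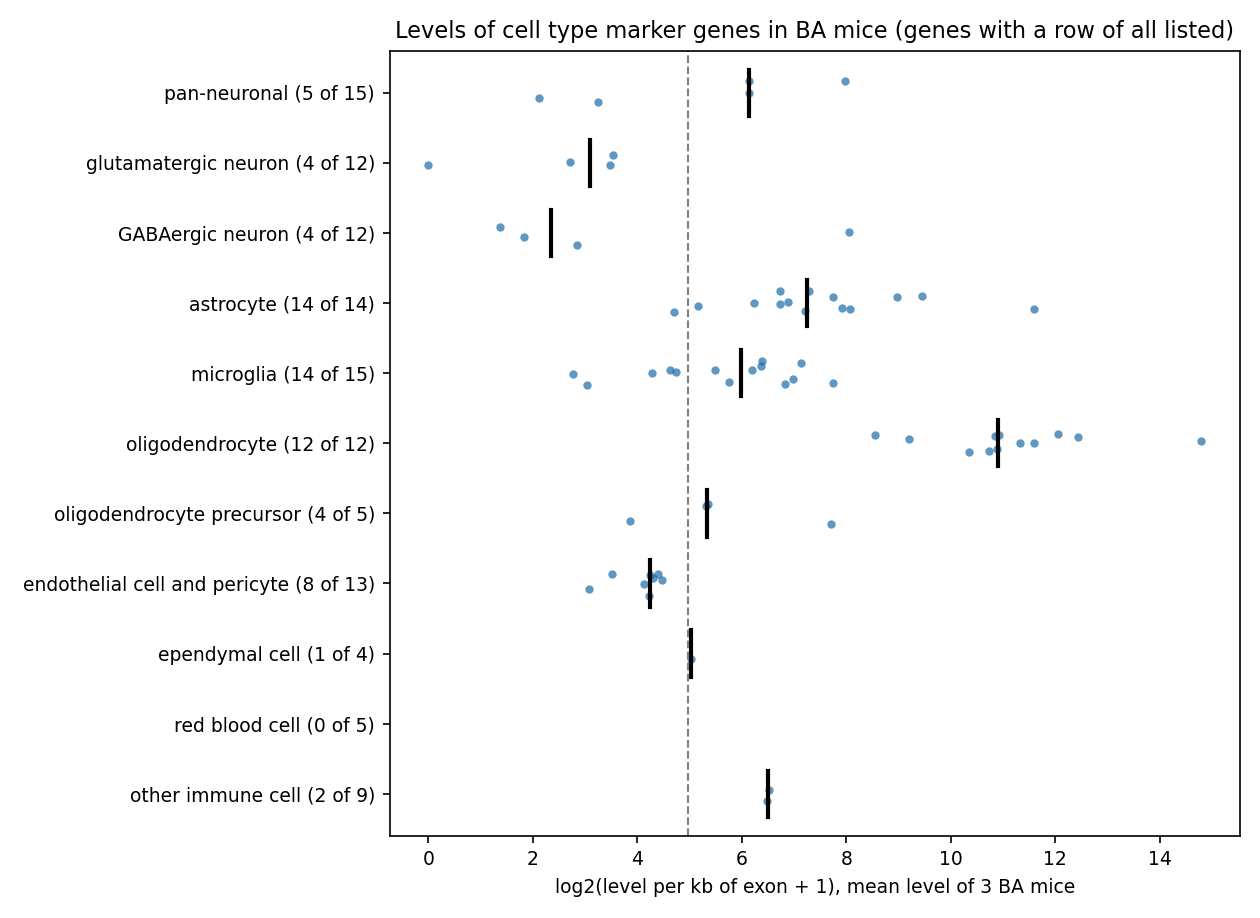
Level per kb of exon of marker genes on the scale log2(level + 1), 1 point per gene with a row (mean level of 3 BA mice), by cell type list. Black bars mark list medians, the dashed line marks the median of all genes, and the names give how many of the listed genes have a row. All 12 oligodendrocyte markers lie to the right of the dashed line, and all 4 glutamatergic markers that have a row lie to its left.

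The distance between lists was measured within each mouse as the difference of list medians of log2(level per kb + 1), over members with a row. Pan-neuronal minus oligodendrocyte was -5.12 in BA1, -4.93 in BA2 and -5.52 in BA3 (mean -5.19 ± 0.30). Pan-neuronal minus astrocyte was -1.50, -0.95 and -2.02 (mean -1.49 ± 0.53). Both differences had the same sign in all 3 mice and were larger than their SD. Pan-neuronal minus microglia was 0.24, 0.78 and -1.20 (mean -0.06 ± 1.03), a difference within the spread between mice, whose sign turned without BA3 (0.51). These medians rest on 5 of 15 pan-neuronal genes. With members that have no row set to 0, the pan-neuronal median was 0 in every mouse by construction, since 10 of the 15 genes have no row. The difference to microglia (-5.65) then only restates the microglial median and does not measure neuronal level.

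A gene without a row cannot be read as a gene without expression. The same 3 mice are listed in the separately normalised table of the BA and AV mice, with 9872 genes, of which 9417 are in both tables, 455 there alone and 2403 in the BA and AP table alone. Ranks of the shared genes hardly differed between the tables, with Spearman's rho across genes between 0.996 and 0.997 in each mouse. Among the genes without a row in the table of the BA and AV mice were some of high level, such as Ptgds, prostaglandin D synthase (5360, 4841 and 2627 in BA1, BA2 and BA3), and Fos (4713, 2338 and 1526). Genes of the BA and AP table that lack a row there had a median SD between BA mice of 0.48 on the log2(value + 1) scale, against 0.21 for genes in both tables, each at a mean value of at least 100 (615 and 6352 genes). Having a row there thus went with the spread between mice and not with level alone. The rule that removed rows was not tested, and rows may be missing here for other reasons.

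On 8 lists of genes expected in amygdala neurons, 91 of 168 genes had a row (54.2%), close to the 52.0% of all protein-coding genes, and 77 had none. The median level of the 91 was 14.9 per kb, against 30.3 for all genes, and 7 of them lay in the highest 10%. Without regard to length, their median value was 115 against 138 for all genes, and 45.1% of them and 41.1% of all genes had a mean value under 100.

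Of 21 transcription factors 9 had a row, at a median of 15.5 per kb. Zbtb20 was the highest at 147 ± 18.7 per kb, then Etv1 (77.4) and Tshz1 (43.9), and Pbx3 varied most, with values of 55.3, 146 and 160. Tbr1, Neurod6, Neurod2, Rorb, Sim1, Otp, Emx1, Bcl11a, Bcl11b, Fezf2 and Lmo3 were among those that have no row. Of 21 markers of amygdala subregions and neuropeptides 6 had a row, at a median of 15.8 per kb, and none lay above the median of all genes. Wfs1, an endoplasmic reticulum protein, had 25.7 per kb, Prkcd, a kinase that marks neurons of the central amygdala, 18.7, and Dkk3, a secreted protein of the basolateral nucleus, 16.8. Penk, the precursor of enkephalin, spread most, with values of 14.8, 59.4 and 4.45. The value of BA3 lay under its level of 3 reads. Rspo2, Ppp1r1b, Grp, Tac1, Tac2, Nts, Crh, Sst, Cartpt, Pdyn, Gal, Cck, Npy, Adcyap1 and Bdnf have no row. The list covers more than pyramidal neurons, and Sst and Npy are also on the GABAergic list. A missing row for such a gene is no departure from the labelled cell type.

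Receptor lists differed from each other in how many members had a row. Of 24 glutamate receptor genes 18 had one, at a median of 16.02 per kb. Grm3, a metabotropic receptor that astrocytes also carry, stood far above the others at 567 ± 80.5 per kb, followed by the AMPA receptor subunits Gria4 (84.3) and Gria2 (81.2). Grin2d varied most, with values of 2, 15.3 and 3.23, of which those of BA1 and BA3 lay under 3 reads. The AMPA subunit Gria1, the NMDA subunits Grin1 and Grin2a and the metabotropic receptors Grm2 and Grm8 were among those that have no row. Of 14 GABA receptor genes 7 had a row, at a median of 8.35 per kb. The metabotropic receptor genes Gabbr1 (279 ± 41.3 per kb) and Gabbr2 (38.4) led, then Gabrg1 (21.2), and Gabra2 varied most, with values of 60.6, 46.1 and 90.6. The ionotropic subunits Gabra3, Gabra5, Gabrb1 and Gabrd were among those that have no row. The 2 genes of the metabotropic GABA receptor were thus higher per kb than each ionotropic subunit with a row.

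Of 28 neuromodulator receptor genes 8 had a row, the smallest share with the subregion markers (28.6% each), at a median of 4.68 per kb. The 3 highest were the glucocorticoid receptor Nr3c1 (202 ± 22.5 per kb), the neurotrophin receptor Ntrk2 (76.4) and the mineralocorticoid receptor Nr3c2 (32.0), of which Nr3c1 and Ntrk2 are also carried by glia. Cnr1, the cannabinoid receptor of nerve endings, varied most of the 8, with values of 11.6, 20.5 and 10.6, and stood at 1.89 per kb. No row was found for the serotonin receptors Htr1a, Htr1b, Htr2a, Htr2c and Htr3a, the dopamine receptors Drd1 and Drd2, or the adrenergic receptors Adra2a and Adrb1. The same was true of the acetylcholine receptors Chrm1, Chrm2, Chrm3 and Chrna7, the peptide receptors Oxtr, Avpr1a and Crhr1, the opioid receptors Oprm1, Oprk1 and Oprd1, and the estrogen receptor Esr1.

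Scaffold, release and channel genes mostly had rows. Of 18 genes of the postsynaptic density 16 had one, at a median of 21.2 per kb, all but Shank1 and Camk2b. Arc, an immediate early gene product at synapses, reached 258 ± 103 per kb, and the adhesion molecule Nrxn2 60.0. Nrxn3 varied most, with values of 156, 144 and 62.1. Of 16 presynaptic genes 10 had a row, at a median of 29.5 per kb, led by the vesicle protein Vamp2 (147 ± 16.2), the active zone protein Pclo (58.8) and Rab3a (43.6). The active zone protein Rims1 varied most, with values of 81.9, 161 and 91.5. Snap25, Syt1, Stx1a, Syn2, Syp and Cplx1 have no row. Of 26 voltage-gated channel genes 17 had one, at a median of 6.02 per kb. The potassium channels Kcna1 (381 ± 111), Kcnq3 (123) and Kcna2 (99.5) led, the calcium channel Cacna1d varied most, with values of 167, 72.7 and 178, and Kcna4, Kcnc2, Kcnd3, Kcnq5, Hcn2, Cacna1e, Cacna1g and Cacna1i were among those that have no row.

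**Figure D3:**
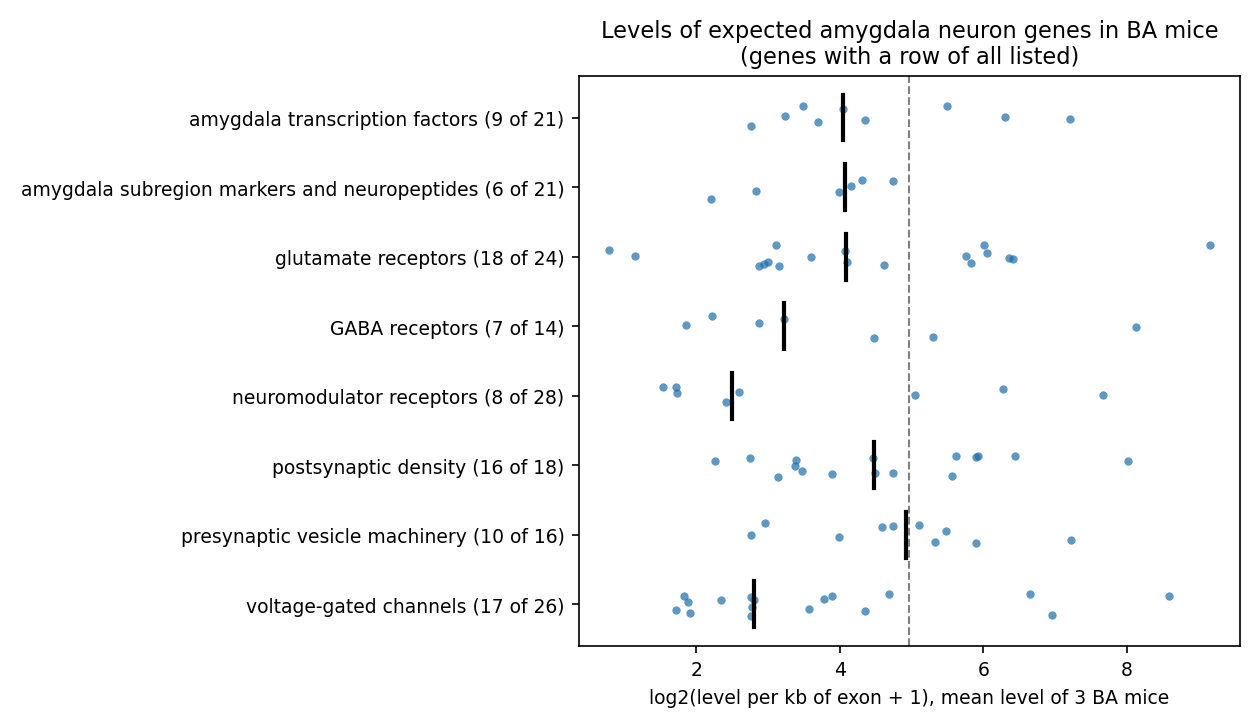
Level per kb of exon of genes expected in amygdala neurons, on the scale log2(level + 1), 1 point per gene with a row (mean level of 3 BA mice), by list. Black bars mark list medians and the dashed line the median of all genes. The 8 list medians, between 4.68 and 29.5 per kb, lie at or left of the dashed line at 30.3 per kb.

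Genes in use in most cells gave a yardstick. The calmodulin genes Calm2 and Calm3 stood at 486 ± 92.3 and 221 ± 35.1 per kb, and Calm2 had values of 610, 665 and 867. Of 83 cytosolic ribosomal protein genes 79 had a row, at a median of 133 per kb, led by Rps3 (896 ± 413, the largest spread of the list), Rps15 (546) and Rpl4 (493). Rps3 and Rpl4 share 145 and 99 exon bases with the small nucleolar RNA genes Snord15b and Snord16a. Of 93 nuclear genes of the respiratory chain 82 had a row, at a median of 68.4 per kb, with Cox6a1 (342), Atp5a1 (238) and Cox4i1 (232) highest and the assembly factor Ndufaf4 varying most (32.9, 41.0 and 97.6). Of 13 mitochondrially encoded protein genes only mt-Co3, mt-Co2, mt-Nd3 and mt-Nd6 had a row, and mt-Co3 reached 19352 ± 6424 per kb. All 11 heat shock genes had a row. Hsp90ab1 (1584 ± 360 per kb), Hsp90aa1 (1497) and Hspa8 (1375) led them, and Hspa1b varied most, with values of 122, 379 and 365. Hspa1a and Hspa1b are near-identical copies, so how their reads were split is uncertain. Of 8 sex-linked genes 7 had a row, among them the Y-linked Ddx3y (708, 817 and 1017) and Eif2s3y (388, 453 and 557), while the X-linked Ddx3x and Eif2s3x stood at 327 and 104 per kb and Xist has no row.

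The 3 mice ranked genes alike. Across genes, which are no independent replicates, Spearman's rho was 0.973 between BA1 and BA2, 0.963 between BA1 and BA3 and 0.966 between BA2 and BA3, and Pearson's r of log2(value + 1) was 0.968, 0.958 and 0.963. Between 4.86% and 7.21% of genes differed by more than 2-fold in a pair of mice. The median SD between mice of log2(value + 1) was 0.26, and 14.2% of genes had an SD above 0.5. The SD expected from counting of reads alone, with a step taken as 1 read, had a median of 0.13. For the 257 genes with a mean value under 10 the measured and the counting SD were 0.37 and 0.41, and for the 952 genes with a mean of 1000 or more they were 0.21 and 0.04. The counting SD is an expected value, and the median of SDs measured over 3 mice tends to fall below such a value. Whether low genes spread more than read counting gives can therefore not be read from these numbers. For high genes, on that assumption, the measured SD was far larger.

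**Figure D4:**
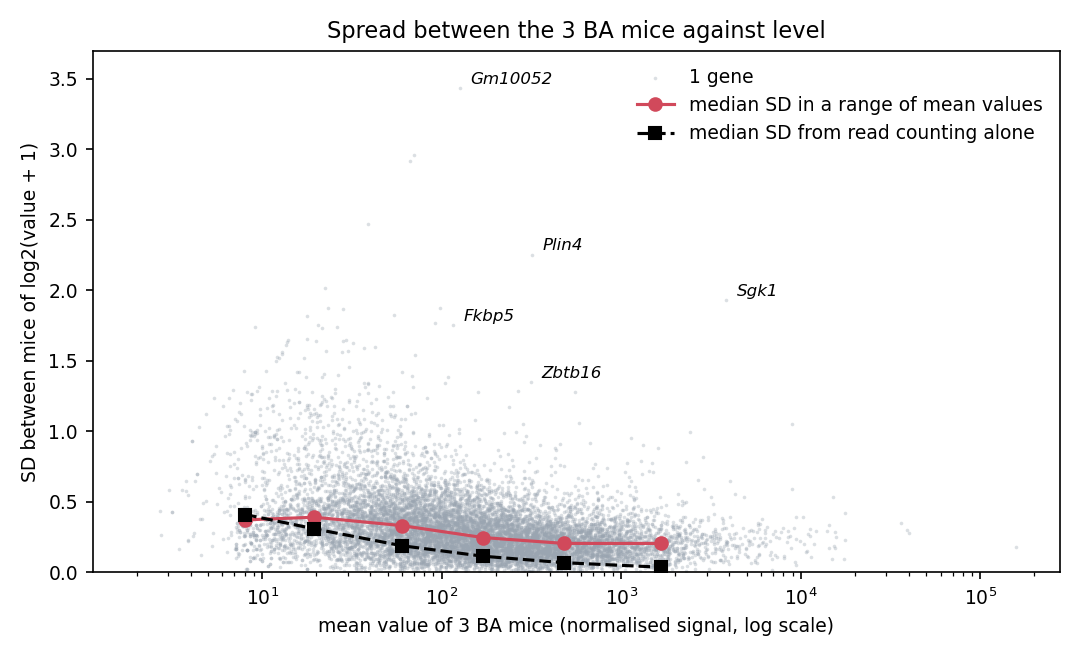
SD between the 3 BA mice of log2(value + 1) (y axis) against the mean value (x axis, normalised signal, log scale), 1 grey point per gene. Red circles join the median SD in ranges of mean value and black squares the median SD expected from read counting with a step taken as 1 read. The lines lie close under a mean value of 10 (0.37 and 0.41) and part at 1000 or more (0.21 and 0.04). Closeness does not show equal spread, since the median of SDs over 3 mice tends to fall below an expected SD. Gm10052, Plin4, Sgk1, Fkbp5 and Zbtb16 lie far above both lines.

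Where the mean value reached 100, the 10 genes with the smallest spread included Ttc1, Mrps33, Atg12, Bcl9, Rere, Ivd, Zfp866, Bsg and Actg1. Ttc1, a tetratricopeptide repeat protein, had values of 199, 200 and 201, and Actg1, gamma-actin, had 2309, 2294 and 2283. Their SDs, between 0.0052 and 0.0081, were smaller than counting at 1 read per step gives for each of them. They were picked as the smallest of 6967 SDs, each over 3 mice, so low SDs follow from that choice. They do not show that these genes are steadier than others.

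The 10 genes with the largest spread fell into a few patterns. Gm10052, a processed pseudogene whose reads may belong to its parent gene, had values of 252, 2 and 124. Its value in BA2 was the lowest one of that mouse. Plin4, a coat protein of lipid droplets, had 201, 726 and 31.4. Sgk1, the serum and glucocorticoid regulated kinase, had 1862, 9053 and 631, a 14.4-fold range at rank 126 of all genes by value, with an SD of 1.93 where counting at 1 read per step gives 0.02. Fkbp5, a co-chaperone of the glucocorticoid receptor, had 90.5, 238 and 20.4, and Zbtb16, a transcription factor, had 180, 655 and 105. These 4 protein-coding genes shared an order, highest in BA2 and lowest in BA3. Polr3e, a subunit of RNA polymerase III, was high in BA2 alone (245, 1159 and 251). Lilr4b (123, 27.5 and 173) and Lilrb4a (175, 89.7 and 531), receptors of myeloid cells, and the transporter Abca9 (52.1, 116 and 310) were highest in BA3, and Lilrb4a shares 1846 exon bases with the gene model Gm49339. Tnc, a matrix protein, was low in BA2 (158, 27.6 and 126).

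Because Sgk1, Plin4, Fkbp5 and Zbtb16 are known to be induced through the glucocorticoid receptor, 19 genes with that background were collected after these values had been seen. The count over them is therefore a description that their choice may have shaped. Of the 19, 16 had a row, all 16 were highest in BA2 and 15 were lowest in BA3. Over all 11820 genes, 33.8% were highest in BA2 and 4216 were lowest in BA3. Klf9, a transcription factor, had values of 899, 1673 and 739, and Hif3a, a partner of hypoxia signalling, 157, 350 and 107. Per1, a clock gene, had 835, 891 and 285. Mt1 and Mt2, metallothioneins, were high per kb (557 and 250) but spread less, Mt1 with 800, 804 and 484. Sgk1 was the highest per kb at 784 ± 928. Summed over the 16 genes, the share of the signal was 0.153% in BA1, 0.344% in BA2 and 0.0846% in BA3, of which Sgk1 was the larger part in BA2. The receptor Nr3c1 itself did not share this order, with values of 1354, 1675 and 1628.

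The region before a start of Sgk1 is shown because Sgk1 led this order by value and its letters hold the palindrome to which the glucocorticoid receptor is known to bind. RefSeq promoter windows of GRCm38.p6 (250 bases before to 50 after a start) were searched on both strands for the full palindrome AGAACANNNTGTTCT and for its half-site TGTTCT, which lies within the palindrome. The 250 bases before a start of Sgk1, chr10:21993640-21993889 on the + strand, are given with the palindrome in capitals. A further half-site, tgttct, lies outside the palindrome near the left end and is left in lower case.
Sgk1: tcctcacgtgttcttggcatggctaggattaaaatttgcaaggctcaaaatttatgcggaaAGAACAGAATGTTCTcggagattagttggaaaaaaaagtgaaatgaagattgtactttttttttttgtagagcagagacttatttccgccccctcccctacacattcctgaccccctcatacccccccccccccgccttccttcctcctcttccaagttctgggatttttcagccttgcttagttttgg

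The palindrome spans chr10:21993701-21993715, 189 to 175 bases before the start at 21993890. The stretch lies inside the span of Sgk1 (chr10:21882184-21999903), upstream of this start and within the longer transcripts, and overlaps 0 annotated exons. Of 6 windows of Sgk1, 3 held the half-site and 1 the palindrome. Among all 32851 windows the palindrome occurred in 3 (0.00913%) and the half-site in 19.0%. Of the 28 windows of 18 of the 19 genes, 1 held the palindrome, that of Sgk1, and 5 windows of 3 genes held the half-site. Fkbp5 and Plin4 had 1 window each, without the palindrome, and Zbtb16 had none. A match describes the letters of the window, and no match says only that the letters are not in it.

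Immediate early genes, transcribed within minutes of a stimulus in neurons and glia, were high and spread in another order. Of 15 such genes 11 had a row, at a median of 305 per kb, and 8 lay in the highest 10% of all genes. Fos had values of 4713, 2338 and 1526 (1215 ± 704 per kb), Jun 3007, 2019 and 1775 (710 ± 205) and Egr1 4189, 2110 and 1775 (600 ± 292). Fosb spread most, with 4370, 1717 and 1135. Of the 11 genes, 10 were highest in BA1, against 32.4% of all genes, and Atf3 (225, 157 and 338) was the exception. Together they held 0.474% of the signal in BA1, 0.220% in BA2 and 0.193% in BA3. The mitochondrially encoded genes went the other way, and all 4 were lowest in BA1 (mt-Co3 had 9542, 16735 and 19245). Of all 11820 genes, 4049 were lowest in BA1. Egr3, Npas4, Ier2 and Btg2 have no row.

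Genes of macrophage-related cells spread in yet another order. Of the 14 microglial markers with a row, 13 were highest in BA3, with Sall1 (639, 529 and 612) the exception, and 10 were lowest in BA2. Over all 11820 genes, 33.8% were highest in BA3 and 3555 were lowest in BA2. The list held 0.0551% of the signal in BA1, 0.0441% in BA2 and 0.0878% in BA3. Mrc1, a receptor of macrophages at brain borders, had values of 391, 261 and 1086, and Lyz2, lysozyme, 99.0, 59.4 and 199. The pericyte and endothelial markers moved in part with them. Of 8 with a row 6 were highest in BA3, and Vtn, a pericyte product, spread most with 19.0, 15.3 and 81.7. Ly6c1, Cldn5 and Ly6a stood at 21.1, 20.1 and 18.6 per kb. Among the 430 genes with a mean of at least 100 and an SD above 0.5, 202 were highest in BA3 (47.0%), 125 in BA2 and 103 in BA1. Of all 6967 genes with a mean of at least 100, 31.3% were highest in BA3. The part of microglial content in that excess was not tested.

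Myelin genes differed less between mice but together. Of the 12 oligodendrocyte markers 10 were highest in BA2 and 9 lowest in BA3, and the largest range among them was 1.90-fold, for Olig2. All 4 precursor markers with a row were highest in BA2 and lowest in BA3. The glucocorticoid-induced genes had the same mouse order, and whether a larger share of oligodendrocyte RNA in BA2 bears on their levels was not tested. Across the same pair of mice, the median log2 deviation from the gene's mean over the 3 mice was 0.27 in BA2 and -0.24 in BA3 for oligodendrocyte markers. For the precursor markers the median deviation was 0.37 and -0.58, and for the 16 genes 0.69 and -0.72. The 16 include Sgk1, Plin4, Fkbp5 and Zbtb16, which were named for their large spread. The size of their deviation is thus partly set by that choice and cannot be weighed against the markers. Ribosomal protein genes were lowest in BA3 for 56 of 79, against 4216 of all 11820 genes.

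**Figure D5:**
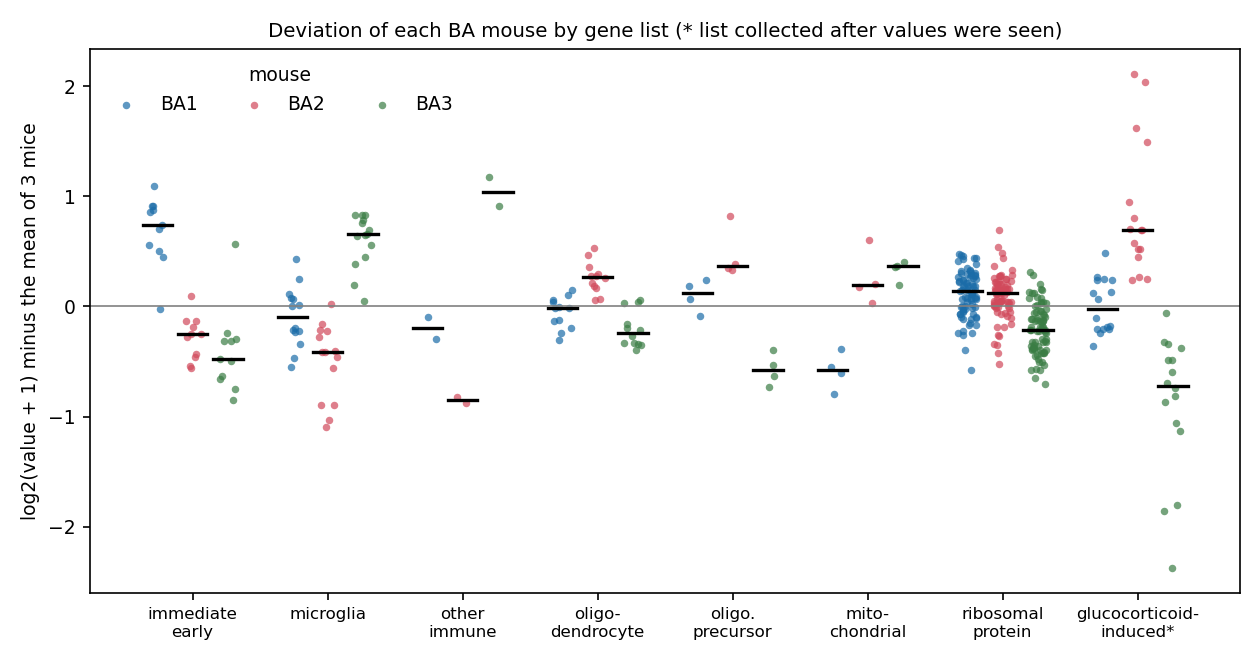
Deviation of each BA mouse from the mean of the 3 mice on the log2(value + 1) scale (y axis), 1 point per gene with a row and black bars for medians, by gene list (x axis) and mouse (colour). Immediate early genes are high in BA1, microglial and other immune markers in BA3, and oligodendrocyte and precursor markers in BA2. The 16 genes marked with an asterisk, collected after their values were seen, are all highest in BA2 (median 0.69).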

How the data were processed

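RNA of sorted fluorescent cells from the amygdala of 9 Thy1-YFP mice (3 phenotypes, 3 mice each) was sequenced by the authors in stranded paired-end libraries made with a low-input kit. Only the 3 BA mice were used here. The authors deposited their values as a normalised signal, 1 per gene and mouse, in 2 tables. Their methods name TMM normalisation, removal of genes with low counts and ARSyN, a batch correction, without saying to which table it was applied. The threshold of the filter is not given in the sources used here. The submitters' processing notes name bcl2fastq 2.20, Salmon 1.2 and GRCm38.p6.

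The AP columns (3) were not used. Identifiers were matched to GENCODE M21 (GRCm38, 11783 matched, 37 not) for symbols, coordinates and union exon length. Level per kb was the value minus the lowest value of the mouse, per 1000 exon bases. Steps were estimated from low values and taken as 1 read each, which is an assumption, and limits from them cover counting error only. Genes with exons shared on the same strand are named as such. Logarithms used a pseudocount of 1. Nothing was tested, since no group was compared.

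Named genes were the 10 highest by value and per kb, the 10 with the largest and smallest SD at a mean of at least 100, and per list the 3 highest per kb, the most variable and those without a row. Others (among them Eno2, Elavl4, Klf9, Hif3a, Per1, Atf3, Sall1 and Ptgds) were named after their values were seen. Some genes that this rule covers are not reported here. Members and lists were chosen with earlier results of these data known. Alternatives changed the pseudocount, a minimum mean of 10, the subtraction, exon length, table, rows set to 0 and mice left out. Scripts were tested on simulated data. Python 3.11.15, numpy 2.4.6, pandas 2.3.3, scipy 1.17.1 and matplotlib 3.10.9 were used.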

Additional observations from a re-analysis of the deposited data

Results flagged for a closer look

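Genes on the lists that have no row in the table of the BA and AP mice can have one in the table of the BA and AV mice, whose values the report does not otherwise give by gene. There, 5 such genes exceeded, in each BA mouse, the highest value of 3 reads (5.68, with a step taken as 1 read). No control samples apply. Rorb, a transcription factor of the expected list, had 257, 197 and 465 in BA1, BA2 and BA3 (mean 306). Egr3, an immediate early gene, had 186, 88.5 and 45.4 (mean 107) and, like 10 of the 11 immediate early genes described above, was highest in BA1. Pdgfrb, a pericyte receptor, had 69.2, 38.2 and 161 (mean 89.4) and was highest in BA3. Sult1a1, a sulfotransferase on the list collected after values were seen, had 20.04, 25.5 and 11.9 (mean 19.2). Ms4a1, a B cell marker, had 16.4, 11.7 and 17.2 (mean 15.1). The depth behind that table is unknown, so the limit was borrowed from the other one.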

How the results depend on the processing

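Of 58 recomputed values, 45 were counted as the same, 10 as moved and 3 as reversed in sign. Those counted as the same kept their sign and moved by less than the spread between mice or, for counts, by less than 1.5 times. The median SD and Spearman's rho have no such spread, and the limit used for them is not given here. The median SD between mice (0.26) was 0.251 with a pseudocount of 5, 0.235 in the table of the BA and AV mice and 0.210 to 0.230 with a mouse left out, where an SD rests on 2 mice. The lowest Spearman's rho (0.963) was 0.974 in that table and 0.963 to 0.973 with a mouse left out, highest without BA3. With members without a row set to 0, the pan-neuronal median was 0 by construction, since 10 of its 15 genes have no row. The differences to the astrocyte (-7.26), microglial (-5.65) and oligodendrocyte (-10.97) medians on the log2 scale then only restate those medians. The difference between pan-neuronal and microglial medians (-0.06) turned to 0.14 with the longest transcript as length and to 0.15 in the other table, and ran from -0.48 to 0.51 with a mouse left out, positive only without BA3. The cause was not tested. The share of the 100 highest genes, the 77 genes shared per kb and the 91 expected genes with a row (89 at a mean of at least 10, 79 in the other table) were among the 45 counted as the same. No paired analysis was possible because the results come from no test. With 3 mice and a filter applied before deposit, low genes, genes without a row and differences near the spread between mice cannot be resolved.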

Other observations

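The genes listed in the table of the BA and AV mice alone were mostly low, with a median mean value of 13.3 in the BA mice, and 18 of the 455 had a mean of at least 100. Zbed6 and Zc3h11a, gene models whose overlap is not reported here, and Dclk1, a microtubule kinase of growing neurons, were among the highest of these 18. Dclk1 had a mean value of 702 and Zbed6 of 714. The genes in the BA and AP table alone had a median mean value of 46.5, and 48.3% of them had an SD between BA mice above 0.5, against 5.46% of the genes in both tables. Of the 11 immediate early genes with a row in the BA and AP table, only Arc was in both tables, and of the 14 microglial markers 4 were, while all 12 oligodendrocyte markers and 12 of 14 astrocyte markers were in both.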
